A study of Homo sapiens with 6 samples.

Results

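The genes described here are 34 genes of cell-matrix adhesion, 21 integrin subunits (14 alpha and 7 beta) and 13 focal adhesion adaptors, chosen by name. All 34 were found among the 60669 genes of the count files, and 30 of them passed the count filter that left 17575 genes for testing. The RNA came from 293T, a line derived from human embryonic kidney, in 3 groups of 2 libraries. These are wild-type control, MLL2 knockout (CRISPR/Cas9 editing) and PRMT1 knockdown (a short hairpin RNA against PRMT1). For each group the labels give the treatment as none, and they do not say whether control and knockout cells carried a hairpin or whether the knockout was a single clone. MLL2 is a histone H3 lysine 4 methyltransferase, a name used for both KMT2B and KMT2D, and PRMT1 is an arginine methyltransferase. The design asks which genes change when either enzyme is depleted.

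Integrins are cell surface receptors built of an alpha and a beta subunit, and the pair decides which matrix protein is bound: collagen, laminin, or proteins such as fibronectin and vitronectin that carry the sequence arginine-glycine-aspartate (RGD). The short tail of the beta subunit binds talin and kindlin, which switch the receptor on, and talin and vinculin tie it to actin. Integrin-linked kinase with PINCH and parvin, the scaffold paxillin and focal adhesion kinase gather at the same site, the focal adhesion, and pass the signal on.

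The libraries held 20061471 to 22351532 counts in genes. PRMT1 stood at 306 and 319 CPM (a read count made comparable between libraries through their totals over tested genes and TMM factors) in the controls, 406 and 425 in the MLL2 knockout and 38.2 and 34.9 in the PRMT1 knockdown. KMT2B was at 7.12 and 7.36 CPM in the knockout against 6.74 and 7.53 in the controls, and KMT2D at 20.8 and 24.2 CPM against 22.5 and 17. Both genes overlapped between the groups, and RNA levels need not show an edit, so they do not check the knockout. In the knockdown KMT2B stood at 13.4 and 26.7 CPM and KMT2D at 37.8 and 95.5, above the other libraries and apart between the replicates. Of 10 genes listed as features of this line, PAX2 was under 1 CPM in every library and LHX1 under 2, while vimentin and neurofilament genes were abundant (VIM 490 to 751 CPM, NEFL 53.3 to 352). Some of these line features moved with the groups: NEFL fell in the knockout (log2 change -1.18 ± 0.08, adjusted p = 2.1e-09) and in the knockdown (-2.67 ± 0.09, adjusted p = 2.6e-15), KRT8 fell in both (-2.42 ± 0.17 and -2.32 ± 0.17, adjusted p = 2.3e-09 and 5.7e-10), and VIM rose by 0.55 ± 0.08 in the knockdown (adjusted p = 8.6e-06). Their part in the results was not tested. The summed CPM of these 10 genes was 1120 and 1140 in the controls, 838 and 849 in the knockout, and 977 and 925 in the knockdown. Genes marking other cell types were low: 6 fibroblast genes summed to 11.5 to 18.6 CPM, 5 leukocyte genes to 1.02 to 3.09 CPM with CD3E at 0 counts in every library, and 4 endothelial genes to 1.15 to 1.71 CPM. The fibroblast sum was 17.5 and 18.6 CPM in the controls against 12.7 and 11.5 in the knockout and 13.5 and 12.5 in the knockdown. Of these genes 5 were tested, and only COL3A1 was called against control, lower in both depletions. It stood at 12.3 and 12.9 CPM in the controls, 7.35 and 6.23 in the knockout and 6.48 and 5.18 in the knockdown. PDGFRA, not called against control, stood at 2.15 and 2.17, 1.53 and 0.834, and 4.40 and 3.16 CPM in the same order. The part of these genes in the results below was not tested.

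In control cells the integrin messages were dominated by a few subunits. Per exon length, ITGB1, the beta subunit shared by most integrins, stood highest of the 34 at a mean of 31.8 CPM per kilobase, and the next beta subunits were ITGB5 at 5.61 and ITGB8 at 0.234. Among alpha subunits ITGAV led at 13.7 CPM per kilobase, ahead of ITGA5 (7.46 and 8.30 in the 2 libraries) and ITGA6 (7.28 and 6.71), whose nearest libraries lay closer together than the replicates of either gene, and ITGAE at 4.42. Among adaptors TLN1 (24.5 CPM per kilobase) and ILK (23.1) were highest, with control libraries that stood close to each other (24.7 and 24.3 for TLN1, 23.8 and 22.4 for ILK), followed by VCL at 19.4 and FERMT2 at 15.4. The paralogs TLN2 (1.73) and FERMT1 (0.439) were far lower. These are levels of RNA, not of protein or of assembled receptors.

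**Figure D1:**
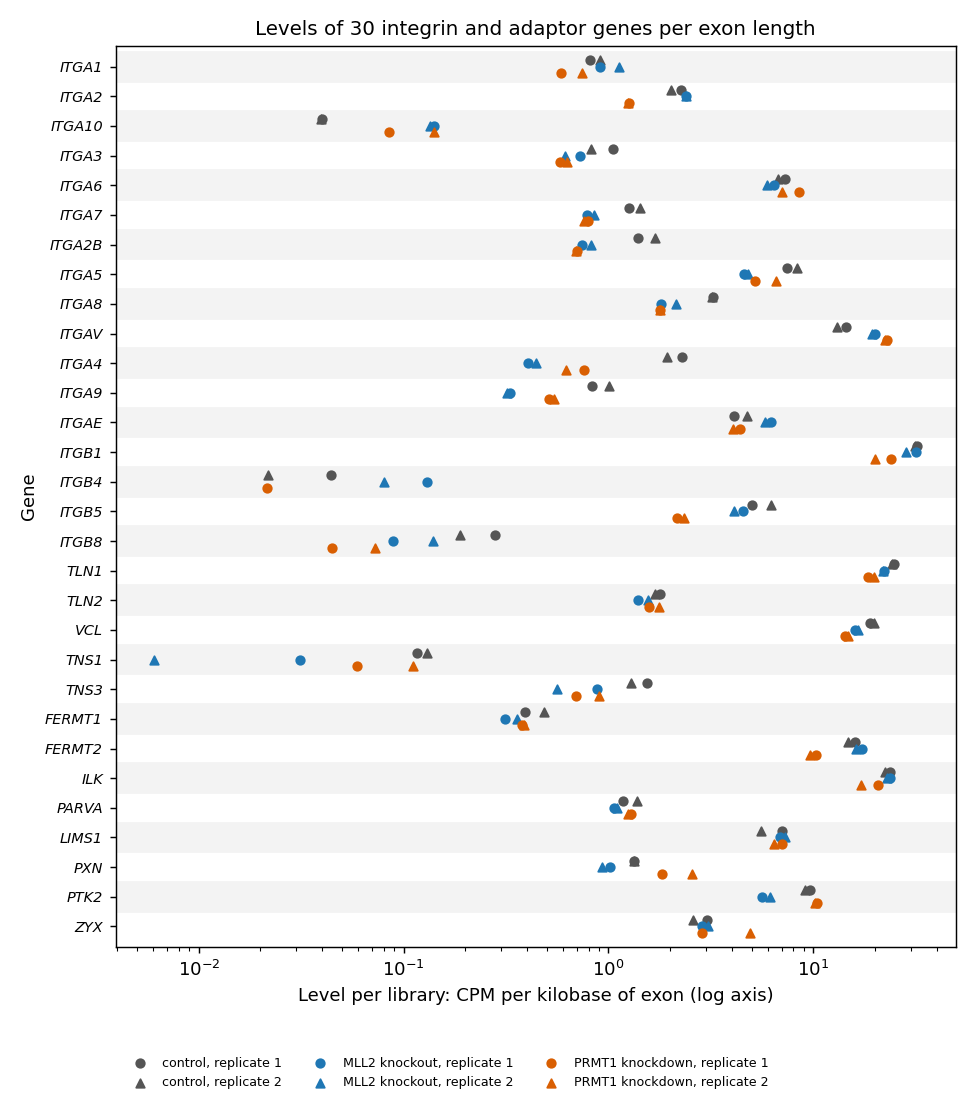
Level of the 30 tested genes in each library, as CPM per kilobase of exon on a log axis, coloured by group, with circles for replicate 1 and triangles for replicate 2. ITGB1, TLN1 and ILK stand highest in the control and MLL2 knockout libraries, and ITGAV lies right of both control libraries in both depletions. The value of 0 for ITGB4 in PRMT1 knockdown replicate 2 is not drawn.

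In the MLL2 knockout 13 of the 30 tested genes were called (edgeR's quasi-likelihood test, Benjamini-Hochberg adjusted p under 0.05), 11 lower and 2 higher. Of all 17575 genes tested 22.4% were called, 12.1% lower and 10.3% higher, against 36.7% lower and 6.67% higher of these 30. In the PRMT1 knockdown 18 of 30 were called, 16 lower and 2 higher. There 47.4% of all genes were called, 25.3% lower and 22.2% higher, against 53.3% and 6.67% of the 30. The median log2 change of the 30 was -0.25 in the knockout (-0.01 over all tested genes) and -0.42 in the knockdown (-0.04 over all tested genes). Without MLL2 knockout replicate 2 fewer of these genes, and fewer of all tested genes, were called in the knockout. Every change rests on n = 2 libraries a group, which the labels call biological replicates without saying what they share, and in bulk RNA fewer cells of a kind and less RNA per cell cannot be told apart.

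In both depletions 9 genes were lower: ITGA4, ITGA5, ITGA7, ITGA8, ITGA9, ITGA2B, ITGB5, VCL and TNS3. ITGAV was the gene higher in both. PTK2 and TNS1 were lower in the knockout without a call in the knockdown, 7 were lower in the knockdown without a call in the knockout (ITGA2, ITGA3, ITGB1, ITGB8, TLN1, FERMT2 and ILK), ITGAE was called higher in the knockout and PXN in the knockdown, and 9 were called in neither. Of the 30 genes 30% were thus lower in both and 3.33% higher in both, where 7.44% and 6.31% of all tested genes had these patterns, and 30% were called in neither against 45.5%. The depletions share their control libraries, so these patterns are counts and not independent findings.

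**Figure D2:**
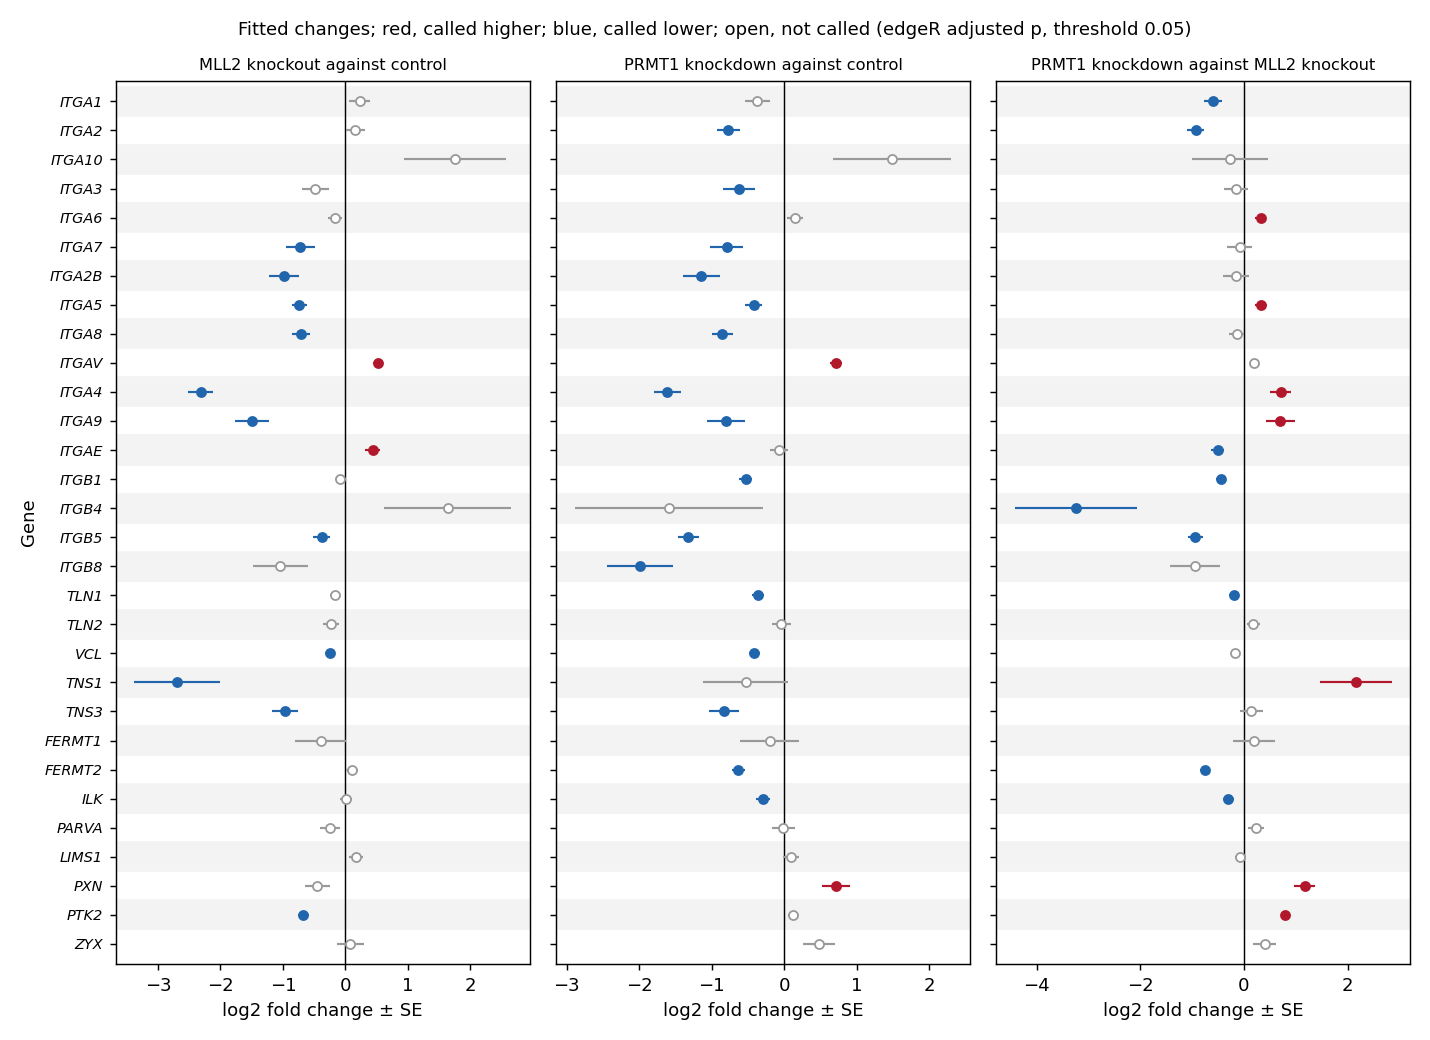
Fitted log2 fold change ± SE of the 30 tested genes in the 3 comparisons, grouped by role from collagen-binding alpha subunits at the top to scaffolds at the bottom. Blue points (called lower) outnumber red ones (called higher) in both comparisons with control, 11 to 2 and 16 to 2, and ITGAV is red in both. The 3 axes differ in range.

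The alpha subunits that bind VCAM1 and fibronectin splice segments, ITGA4 and ITGA9, were low in both depletions. ITGA4 (chromosome 2, 181457202 to 181538940) stood at 24.4 and 20.7 CPM in the controls, 4.30 and 4.71 in the knockout and 8.12 and 6.63 in the knockdown. Its 3 groups did not overlap, with the knockout lowest. It fell by 2.32 ± 0.20 on the log2 scale in the knockout (5.01-fold, adjusted p = 4.9e-08) and by 1.61 ± 0.19 in the knockdown (3.06-fold, adjusted p = 4.3e-07). ITGA9 (chromosome 3, 37452115 to 37823507), whose product binds tenascin, stood at 6.89 and 8.37 CPM in the controls, 2.73 and 2.65 in the knockout and 4.26 and 4.48 in the knockdown. The groups again did not overlap. ITGA9 fell by 1.5 ± 0.27 in the knockout (adjusted p = 4.2e-04) and by 0.80 ± 0.26 in the knockdown (adjusted p = 0.0141), the latter not called without control replicate 2 (-0.66, adjusted p = 0.126). Within 2 Mb of ITGA4 lie 7 other genes whose average log2 CPM exceeded 2, with a median log2 change of 0.17 in the knockout and 0.35 in the knockdown. The 18 such genes around ITGA9 had medians of -0.10 and -0.08.

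The RGD-binding alpha subunits split, with ITGAV higher and the other 3 lower. ITGAV (chromosome 2, 186590056 to 186680901), which makes the vitronectin receptors and receptors for latent TGF-beta, stood at 118 and 107 CPM in the controls, 164 and 158 in the knockout and 187 and 183 in the knockdown. All 4 depleted libraries lay above both controls. ITGAV rose by 0.52 ± 0.08 in the knockout (1.43-fold, adjusted p = 1.6e-04) and by 0.72 ± 0.08 in the knockdown (1.64-fold, adjusted p = 5.5e-07). ITGA5 (chromosome 12, 54395261 to 54419266), the alpha subunit of the main fibronectin receptor, stood at 55.1 and 61.3 CPM in the controls, 33.9 and 35.6 in the knockout and 38.3 and 48.8 in the knockdown. It fell in both, by 0.74 ± 0.12 in the knockout (adjusted p = 1.3e-04) and by 0.42 ± 0.12 in the knockdown (adjusted p = 0.00569), where the call was lost without control replicate 2 (-0.35, adjusted p = 0.0801) or PRMT1 knockdown replicate 1 (-0.26, adjusted p = 0.0669). Of 62 neighbours of ITGA5 within 2 Mb 30 were lower in the knockdown and 7 higher, with a median of -0.27, while in the knockout their median was -0.02, and the part of this region in the fall of ITGA5 was not tested.

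ITGA8 and ITGA2B fell in both depletions. ITGA8 (chromosome 10, 15513954 to 15719922), a receptor subunit needed for kidney formation, stood at 23.7 and 23.4 CPM in the controls, 13.2 and 15.6 in the knockout and 13.01 and 13.04 in the knockdown. Its log2 change was -0.71 ± 0.15 (adjusted p = 0.00177) and -0.85 ± 0.15 (adjusted p = 8.9e-05). ITGA2B (chromosome 17, 44372180 to 44389649), best known from platelets, stood at 7.94 and 9.65 CPM in the controls, 4.25 and 4.66 in the knockout and 4.01 and 3.95 in the knockdown. It fell by 0.98 ± 0.24 (adjusted p = 0.00601) and by 1.14 ± 0.25 (adjusted p = 6.3e-04), and without control replicate 2 the knockout call was lost (-0.83, adjusted p = 0.0914). Its platelet partner ITGB3 had 5 and 13 counts in the controls, 4 and 3 in the knockout and 2 and 1 in the knockdown, and was not tested. An unnamed gene on the same strand shares 35.7% of the exon bases of ITGB3, and reads from those bases cannot be told apart.

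Laminin-binding alpha subunits differed among themselves. ITGA7 (chromosome 12, 55684568 to 55716043), prominent in muscle, stood at 8.03 and 9.15 CPM in the controls, 4.99 and 5.45 in the knockout and 5.08 and 4.83 in the knockdown. It fell by 0.72 ± 0.23 (adjusted p = 0.0292) and by 0.79 ± 0.23 (adjusted p = 0.00742). The ITGA7 call in the knockout was lost when any control or knockout library was left out (-0.81 and -0.62 without control replicates 1 and 2, -0.66 and -0.78 without knockout replicates 1 and 2, adjusted p = 0.0717 to 0.194) and with DESeq2 (-0.70, adjusted p = 0.0546), and that in the knockdown without control replicate 2 (-0.71, adjusted p = 0.0657). Of 67 neighbours of ITGA7 within 2 Mb 34 were lower in the knockdown and 7 higher (median -0.26, against -0.06 in the knockout), and their part in its fall was not tested. This window overlaps that of ITGA5 on the same chromosome, so the neighbour counts of ITGA5 and ITGA7 are not separate observations. ITGA3, typical of epithelia, stood at 10.3 and 8.07 CPM in the controls and 5.71 and 6.19 in the knockdown, where it fell by 0.62 ± 0.22 (adjusted p = 0.0263), a call lost without control replicate 1 (-0.45, adjusted p = 0.228) or PRMT1 knockdown replicate 1 (-0.57, adjusted p = 0.0717) and with DESeq2 (-0.59, adjusted p = 0.0681). ITGA6, the more abundant laminin receptor subunit, was at 48.9 and 45.0 CPM in the controls, 43.2 and 40.03 in the knockout and 57.2 and 47.0 in the knockdown, with no call against control. Without PRMT1 knockdown replicate 2 it was called higher in the knockdown (0.29, adjusted p = 0.0416).

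Of the collagen-binding alpha subunits, ITGA2 was called in the knockdown. ITGA2 (chromosome 5, 52989340 to 53094779) stood at 17.9 and 15.9 CPM in the controls, 18.9 and 18.9 in the knockout and 9.96 and 9.88 in the knockdown. It fell by 0.77 ± 0.16 in the knockdown (1.70-fold, adjusted p = 4.4e-04). Its neighbour ITGA1 (chromosome 5, 52787916 to 52959209) stood at 15.1 and 16.8 CPM in the controls, 16.8 and 20.8 in the knockout and 10.9 and 13.8 in the knockdown, a log2 change of -0.37 ± 0.17 in the knockdown (adjusted p = 0.0814). ITGA1 was called lower there without PRMT1 knockdown replicate 2 (-0.55, adjusted p = 0.0168) and with the correction for exon length (-0.64, adjusted p = 0.00198), and PELO and a pseudogene lie on its strand, sharing 5.77% of its exon bases. ITGA10 had 5 and 5 counts in the controls, 19 and 17 in the knockout and 11 and 20 in the knockdown, with no call, having passed the filter through the depleted libraries, and ITGA11 had 0 to 15 counts and was not tested. ITGAE, the alpha subunit of a receptor for E-cadherin on leukocytes, stood at 26.95 and 31.4 CPM in the controls, 41.05 and 38.4 in the knockout and 29.1 and 26.7 in the knockdown. ITGAE rose by 0.44 ± 0.12 in the knockout (adjusted p = 0.0106), a call lost without control replicate 1 (0.34, adjusted p = 0.166) or MLL2 knockout replicate 1 (0.40, adjusted p = 0.109). Its beta partner ITGB7 had 0 to 4 counts per library and was not tested.

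The beta subunits were mostly lower in the knockdown. ITGB1 (chromosome 10, 32900318 to 33005792) stood at 194 and 188 CPM in the controls, 192 and 170.3 in the knockout and 144 and 121 in the knockdown. The knockdown libraries lay below all others, and ITGB1 fell there by 0.53 ± 0.09 (1.44-fold, adjusted p = 8.6e-05), while its log2 change in the knockout was -0.08 ± 0.09 (adjusted p = 0.607). ITGB5 (chromosome 3, 124761948 to 124901418), the vitronectin-binding partner of ITGAV, stood at 32.8 and 40.4 CPM in the controls, 29.6 and 26.7 in the knockout and 14.1 and 15.2 in the knockdown. It fell by 1.32 ± 0.14 in the knockdown (2.49-fold, adjusted p = 1.2e-07) and by 0.38 ± 0.13 in the knockout (adjusted p = 0.0447). The ITGB5 call in the knockout was lost under relative log expression scaling (-0.36, adjusted p = 0.0547), DESeq2 (-0.36, adjusted p = 0.0894) and no count filter (-0.37, adjusted p = 0.0543), and without control replicate 2 (-0.22, adjusted p = 0.464), MLL2 knockout replicate 1 (-0.45, adjusted p = 0.091) or MLL2 knockout replicate 2 (-0.30, adjusted p = 0.297).

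ITGB8 and ITGB4 were scarce. ITGB8 (chromosome 7, 20330702 to 20415754), which with ITGAV activates latent TGF-beta, stood at 4.24 and 2.85 CPM in the controls, 1.34 and 2.11 in the knockout and 0.677 and 1.097 in the knockdown. It fell by 1.99 ± 0.46 in the knockdown (3.96-fold, adjusted p = 0.00131), and its log2 change in the knockout was -1.04 ± 0.44 (adjusted p = 0.094). That knockout change was called in the fit of control and knockout alone (-1.04, adjusted p = 0.0433), and likewise without PRMT1 knockdown replicate 1 (adjusted p = 0.0458) or replicate 2 (adjusted p = 0.0433). ITGB4, the hemidesmosome subunit that pairs with ITGA6, had 6 and 3 counts in the controls, 19 and 11 in the knockout and 3 and 0 in the knockdown, with no call against control. ITGB6, an epithelial partner of ITGAV, had 0 to 3 counts and was not tested.

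**Figure D3:**
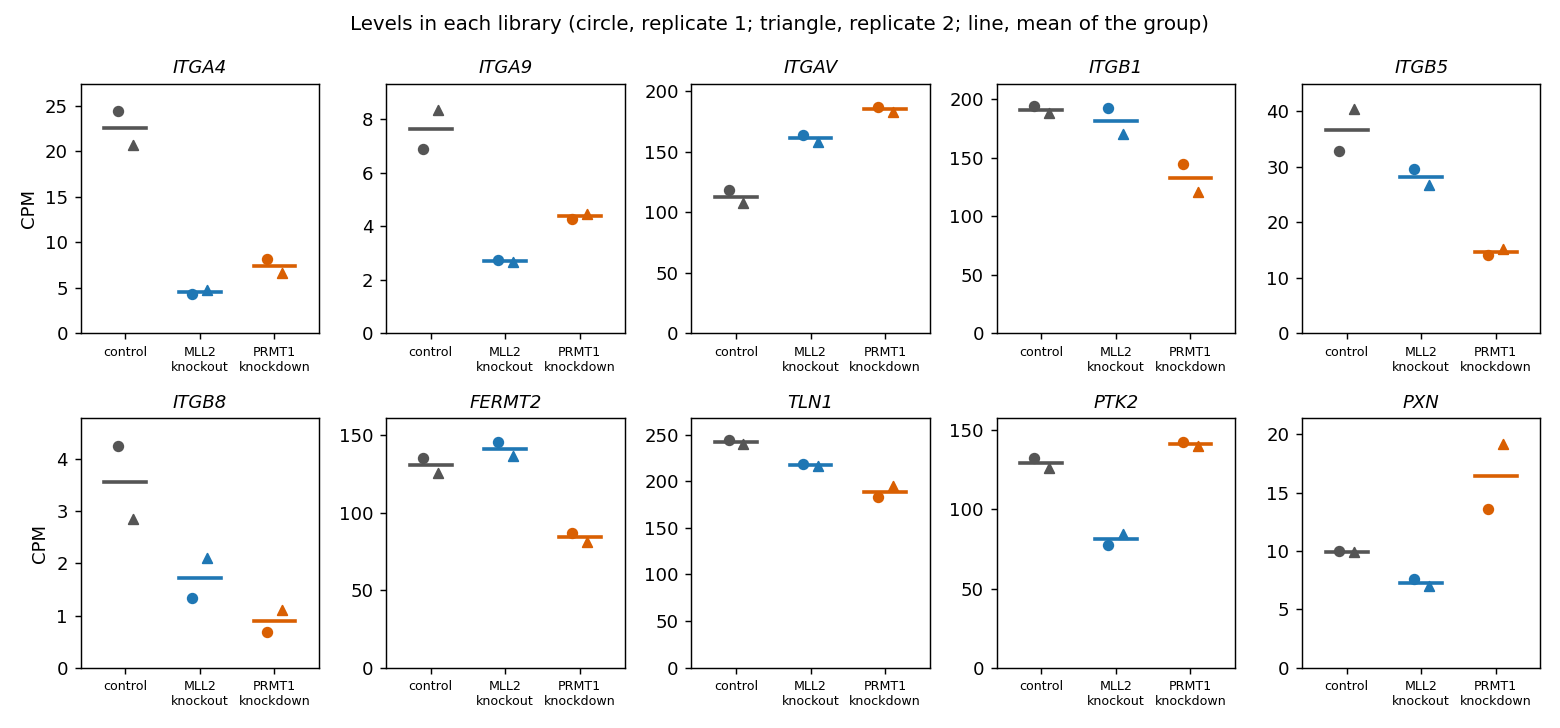
CPM of 10 genes in each library by group, with a line at the group mean and each axis starting at 0. ITGA4 and ITGA9 are low in both depletions, ITGAV is high in both, ITGB1, ITGB5 and FERMT2 are lowest in the PRMT1 knockdown, and PTK2 is lowest in the MLL2 knockout.

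The summed alpha subunit messages lay between 44.7 and 48.0 CPM per kilobase in all 6 libraries, and the share of ITGAV was higher in the depleted ones. The 14 alpha genes summed to 46.4 and 45.9 CPM per kilobase in the controls, 45.5 and 44.7 in the knockout and 48.0 and 47.1 in the knockdown. ITGAV made up 30.9% and 28.4% of that sum in the controls, 43.9% and 43.1% in the knockout and 47.5% and 47.3% in the knockdown. ITGA5 made up 16.1% and 18.1%, 10.1% and 10.8%, and 10.8% and 14.0% in the same order. ITGA4 made up 4.93% and 4.23% in the controls and at most 1.59% in the depleted libraries. The 7 beta genes summed to 37.7 and 37.9 CPM per kilobase in the controls, 36.8 and 32.7 in the knockout and 26.3 and 22.5 in the knockdown, with ITGB1 at 82.8% to 91.5% of the sum in every library. The ratio of ITGAV to ITGB5 per length was 2.86 and 2.11 in the controls, 4.39 and 4.70 in the knockout and 10.5 and 9.54 in the knockdown, and that of ITGAV to ITGB1 was 0.446 and 0.417, 0.625 and 0.680, and 0.949 and 1.11. These sums and ratios are values per library with no test.

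**Figure D4:**
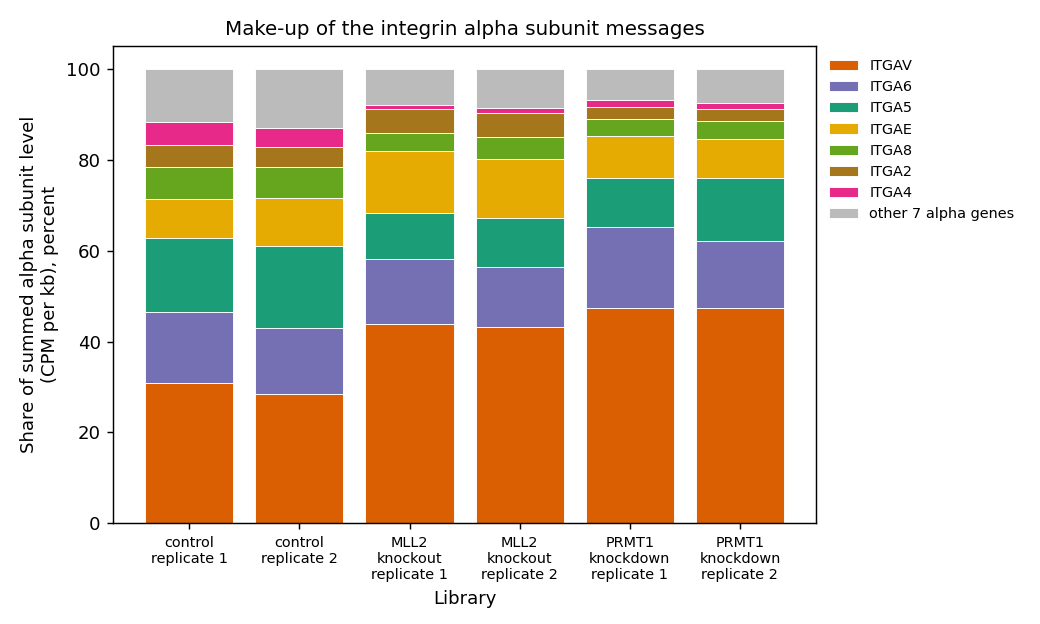
Share of each alpha subunit gene in the summed alpha level (CPM per kilobase, percent) in each library, with the 7 genes of smallest share in the controls drawn together. The ITGAV share is 28.4% to 30.9% in the controls and 43.1% to 47.5% in the depleted libraries.

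Among the proteins that link integrins to actin, vinculin and tensin 3 fell in both depletions. VCL (chromosome 10, 73995193 to 74121363) stood at 190.3 and 197 CPM in the controls, 159.9 and 166 in the knockout and 143 and 147 in the knockdown. It fell by 0.41 ± 0.08 in the knockdown (adjusted p = 2.4e-04) and by 0.25 ± 0.08 in the knockout (adjusted p = 0.0312), the latter not called without any one control or knockout library (-0.27 and -0.22 without control replicates 1 and 2, -0.22 and -0.27 without knockout replicates 1 and 2, adjusted p = 0.138 to 0.292), with no count filter (-0.24, adjusted p = 0.0501) or with the length correction (-0.21, adjusted p = 0.0513). TNS3 (chromosome 7, 47275154 to 47582558) stood at 18.2 and 15.2 CPM in the controls, 10.4 and 6.57 in the knockout and 8.12 and 10.6 in the knockdown. It fell by 0.97 ± 0.21 in the knockout (adjusted p = 0.00228), a call lost without MLL2 knockout replicate 2 (-0.67, adjusted p = 0.054), and by 0.83 ± 0.21 in the knockdown (adjusted p = 0.00268). TNS1 had 38 and 43 counts in the controls, 11 and 2 in the knockout and 20 and 41 in the knockdown. It fell by 2.69 ± 0.69 in the knockout (adjusted p = 0.00742), with -4.27 without MLL2 knockout replicate 1 and no call without MLL2 knockout replicate 2 (-1.96, adjusted p = 0.0761).

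Of the integrin activators, the abundant talin and kindlin genes fell in the knockdown. TLN1 (chromosome 9, 35696948 to 35732195) stood at 244 and 239.6 CPM in the controls, 218 and 216 in the knockout and 183 and 194 in the knockdown, and fell in the knockdown by 0.36 ± 0.08 (1.28-fold, adjusted p = 8.1e-04). Its change in the knockout was -0.16 ± 0.08 (adjusted p = 0.172), called lower in the fit of control and knockout alone (-0.15, adjusted p = 0.0334) and without PRMT1 knockdown replicate 1 (adjusted p = 0.0341) or replicate 2 (adjusted p = 0.0322). FERMT2 (chromosome 14, 52857268 to 52952435), kindlin-2, stood at 136 and 125.5 CPM in the controls, 146 and 137 in the knockout and 87.2 and 81.3 in the knockdown. It fell by 0.63 ± 0.09 in the knockdown (1.55-fold, adjusted p = 4.6e-06), and both knockdown libraries lay below the other 4. The paralogs TLN2 (22.7 to 28.8 CPM) and FERMT1, kindlin-1 (1.66 to 2.61 CPM), were not called in either depletion.

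Of the ILK, PINCH and parvin complex, ILK was called in the knockdown. ILK (chromosome 11, 6603708 to 6610874) stood at 83.04 and 78.2 CPM in the controls, 82.7 and 79.9 in the knockout and 72.4 and 59.4 in the knockdown, a fall of 0.29 ± 0.10 (adjusted p = 0.0208). The ILK call was lost with the length correction (-0.14, adjusted p = 0.215), with DESeq2 (-0.26, adjusted p = 0.0539), in the fit of the compared groups alone (-0.26, adjusted p = 0.0609), and without control replicate 1 (-0.25, adjusted p = 0.148), control replicate 2 (-0.34, adjusted p = 0.05) or PRMT1 knockdown replicate 2 (-0.16, adjusted p = 0.212); it was -0.45 without PRMT1 knockdown replicate 1. PARVA, alpha-parvin (13.3 to 17.3 CPM), and LIMS1, the PINCH1 gene (43.0 to 56.5 CPM), were not called in either depletion. LIMS1 has related copies in the genome, so its counts are less certain.

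Focal adhesion kinase and paxillin differed between the depletions. PTK2 (chromosome 8, 140657900 to 141002216), the gene of focal adhesion kinase, stood at 132 and 126 CPM in the controls, 77.6 and 84.7 in the knockout and 142 and 139.8 in the knockdown. It fell by 0.67 ± 0.09 in the knockout (1.59-fold, adjusted p = 1.3e-05). Its 8 neighbours within 2 Mb had a median log2 change of -0.54 in the knockout, with 4 called lower and 0 higher, and 157 of 252 genes of chromosome 8 beyond 50 Mb were lower there (median -0.45). The part of the chromosome arm in the fall of PTK2 was not tested. PXN (chromosome 12, 120210439 to 120265771), paxillin, a substrate of that kinase, stood at 9.98 and 9.94 CPM in the controls, 7.63 and 6.97 in the knockout and 13.6 and 19.2 in the knockdown. It rose by 0.72 ± 0.19 in the knockdown (adjusted p = 0.0037), a call lost without PRMT1 knockdown replicate 2 (0.45, adjusted p = 0.0962). ZYX, the LIM protein zyxin, stood at 9.88 and 8.42 CPM in the controls, 9.34 and 9.96 in the knockout and 9.38 and 16.1 in the knockdown, a log2 change of 0.48 ± 0.22 (adjusted p = 0.0782). ZYX was called higher without PRMT1 knockdown replicate 1 (0.81, adjusted p = 0.00108), with the length correction (0.66, adjusted p = 0.0179) and with no count filter (0.51, adjusted p = 0.042).

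Exon length moved with the knockdown. Among genes whose average log2 CPM exceeded 2, the knockdown's median log2 change was -0.45 for exon lengths under 1000 nt, -0.15 for 2000 to 4000 nt, 0.01 for 4000 to 8000 nt and 0.16 above 8000 nt. The 34 genes have 3267 to 18545 nt of exon sequence, with ZYX and ILK the shortest. With a correction of each library for exon length, 16 of the 30 were called lower in the knockdown and 3 higher, with a median of -0.49. Under the same correction 3902 of all 17575 tested genes were called lower and 4610 higher, with a median of 0.06.

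Set directly against each other, the knockdown and the knockout differed in 16 of the 30 genes, 7 higher and 9 lower in the knockdown, where 40.7% of all tested genes were called (19.4% higher and 21.4% lower). The 9 lower include ITGB4, which passed the count filter through the knockout libraries in which it was higher. With either MLL2 knockout library left out, fewer of these genes were called, and their share then lay near that of all tested genes. PTK2 (0.80 ± 0.09, adjusted p = 2.8e-07) and PXN (1.17 ± 0.20, adjusted p = 6.1e-05) were higher in the knockdown, and FERMT2 (-0.75 ± 0.09, adjusted p = 8.1e-07), ITGB5 (-0.94 ± 0.14, adjusted p = 1.4e-05), ITGA2 (-0.93 ± 0.16, adjusted p = 7.1e-05), ITGB1 (-0.45 ± 0.09, adjusted p = 5.6e-04) and ITGAE (-0.51 ± 0.12, adjusted p = 0.00177) were lower. These 7 kept their call under every alternative tried. The 8 neighbours of PTK2 within 2 Mb had a median of 0.69 in this comparison, with 6 called higher and 1 lower. Of 252 genes of chromosome 8 beyond 50 Mb, 138 were higher and 26 lower (median 0.38). The part of this region in the PTK2 difference was not tested.

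The other 9 differences between the depletions were each lost without at least 1 library, and some also under other settings. ITGA4 was higher in the knockdown than in the knockout (0.71 ± 0.20, adjusted p = 0.00756), but not called without MLL2 knockout replicate 1 (0.64, adjusted p = 0.0566) or PRMT1 knockdown replicate 1 (0.55, adjusted p = 0.0562). ITGA9 was higher (0.70 ± 0.28, adjusted p = 0.0476), with 0.66 to 0.73 and no call when any library was left out (adjusted p = 0.0621 to 0.148), with DESeq2 (0.72, adjusted p = 0.079), with no count filter (0.72, adjusted p = 0.062), with the length correction (0.64, adjusted p = 0.0655) or in the compared groups alone (0.70, adjusted p = 0.0828). ITGA5 (0.33 ± 0.12, adjusted p = 0.0326) was lost without control replicate 1 (0.32), control replicate 2 (0.32), MLL2 knockout replicate 1 (0.28), MLL2 knockout replicate 2 (0.35) or PRMT1 knockdown replicate 2 (0.14) and in the compared groups alone (0.33, adjusted p = 0.0576). ITGA6 (0.32 ± 0.11, adjusted p = 0.0265) was lost without MLL2 knockout replicate 1 (0.37), MLL2 knockout replicate 2 (0.26) or PRMT1 knockdown replicate 1 (0.16). TNS1 (2.16 ± 0.69, adjusted p = 0.0166) was lost without MLL2 knockout replicate 2 (1.43) or PRMT1 knockdown replicate 2 (1.64), and was 3.73 without MLL2 knockout replicate 1.

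ITGA1 was lower in the knockdown than in the knockout (-0.60 ± 0.17, adjusted p = 0.00678), a call lost without MLL2 knockout replicate 2 (-0.45, adjusted p = 0.105). TLN1 (-0.20 ± 0.08, adjusted p = 0.0455) was lost without either control replicate (-0.21 each) and without MLL2 knockout replicate 1 (-0.21) or 2 (-0.22), and also under relative log expression scaling (-0.19, adjusted p = 0.0642), no count filter (-0.18, adjusted p = 0.133), the stricter filter of 1 CPM in 2 libraries (-0.19, adjusted p = 0.054) and in the compared groups alone (-0.20, adjusted p = 0.076). ILK (-0.30 ± 0.10, adjusted p = 0.0186) was lost without MLL2 knockout replicate 1 (-0.29), MLL2 knockout replicate 2 (-0.34) or PRMT1 knockdown replicate 2 (-0.17) and with the length correction (-0.18), and was -0.46 without PRMT1 knockdown replicate 1. ITGB4 held 30 counts in the knockout and 3 in the knockdown, a ratio of 10.3 with a 95% exact binomial interval of 3.22 to 53.0 that covers counting error only. ITGB4 passed the count filter through the knockout libraries, which the interval, from counts pooled over replicates, does not allow for. Its fitted change (-3.24 ± 1.18, adjusted p = 0.0326) was -6.91 without PRMT1 knockdown replicate 1, and it was lost when any other library was left out (-3.54 to -2.25, adjusted p = 0.0707 to 0.321), with DESeq2 (-3.31, adjusted p = 0.0562) or with no count filter (-3.21, adjusted p = 0.0645).

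ITGAV was 0.20 ± 0.08 higher in the knockdown than in the knockout and not called (adjusted p = 0.0591), but it was called under relative log expression scaling (0.22, adjusted p = 0.0379), DESeq2 (0.22, adjusted p = 0.0291), the stricter filter (0.22, adjusted p = 0.0298) and without PRMT1 knockdown replicate 2 (0.21, adjusted p = 0.0258). VCL (-0.17 ± 0.08, adjusted p = 0.107) was called lower in the knockdown than in the knockout with the length correction (-0.27, adjusted p = 0.00892) and without PRMT1 knockdown replicate 2 (-0.19, adjusted p = 0.0483). ITGB8 (-0.95 ± 0.48, adjusted p = 0.122) was called lower with the length correction (-1.17, adjusted p = 0.0497), and ZYX (0.40 ± 0.22, adjusted p = 0.151) higher with it (0.56, adjusted p = 0.049) and without PRMT1 knockdown replicate 1 (0.73, adjusted p = 0.00348).

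The promoter letters of 4 alpha genes are shown because these genes moved in both depletions. MLL2 enzymes methylate histone H3 lysine 4, and CpG content is given only as a description of the sequence. Each line gives the 150 bases before the start of the gene on its own strand (RefSeq, GRCh38.p14), and each window ends at the gene start given in the count files and overlaps no exon there. They lie at chr12:54419267-54419416 (minus strand), chr10:15719923-15720072 (minus), chr17:44389650-44389799 (minus) and chr2:186589906-186590055 (plus). Capitals mark CpG dinucleotides.
ITGA5: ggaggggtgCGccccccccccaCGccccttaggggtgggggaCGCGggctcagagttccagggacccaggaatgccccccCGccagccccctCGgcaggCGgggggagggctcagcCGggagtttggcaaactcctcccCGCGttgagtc
ITGA8: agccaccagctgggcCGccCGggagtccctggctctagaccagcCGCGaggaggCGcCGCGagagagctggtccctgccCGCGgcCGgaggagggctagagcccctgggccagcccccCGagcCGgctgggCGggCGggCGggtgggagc
ITGA2B: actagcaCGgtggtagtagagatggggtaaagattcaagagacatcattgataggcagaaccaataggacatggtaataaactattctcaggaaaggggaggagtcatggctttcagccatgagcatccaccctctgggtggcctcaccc
ITGAV: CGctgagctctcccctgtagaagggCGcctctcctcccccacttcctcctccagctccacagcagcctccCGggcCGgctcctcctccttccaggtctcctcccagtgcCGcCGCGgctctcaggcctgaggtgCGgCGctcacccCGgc
ITGA5, ITGA8 and ITGAV hold 10, 15 and 10 CpG in these windows and ITGA2B holds 1. Histone marks were not measured here, and the part of CpG content in these changes was not tested.

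A RefSeq promoter was matched for 26 of the 34 genes, and the window nearest to the gene start of the files was taken for each, which lay 47562 bases away for ITGB1, 23707 for TNS1, 2923 for VCL and 1385 for FERMT2. Over the 250 bases before the start, these 26 had a median of 21 CpG against 11 over all 35116 RefSeq promoter windows. The sets are unlike, also for the motifs below. The 26 enter with a single window each, out of 41, while the 35116 are every window of 27305 genes, whether or not tested here. Of the genes lower in both depletions, 7 had a window. The windows taken held 2 to 25 CpG, from ITGA2B at 2, TNS3 at 6 and ITGB5 at 9 to ITGA4 and VCL at 25. For 6 genes called in neither depletion they held 1 to 36. The ranges overlap, and the values depend on the window taken. TNS3 has other windows with 31 CpG, 447 bases from the gene start, and 14 CpG. Other windows of ITGB5 hold 19 and 23. Among genes called in neither, ITGA6 has 8 in the window taken and 30 in another. LIMS1 has 35 in the window taken and 3, 4 and 1 in others. On either strand, the motif GGGCGG, which contains a CpG, was found in 53.8% of the 26 and 42.6% of all windows, CCAAT in 15.4% and 32.0%, TATAAA in 3.85% and 10.7%, CACGTG in 7.69% and 6.34%, and TGANTCA in 0 of the 26 and 6.57% of all windows.

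Of 30 genes that encode integrin ligands 24 were tested, and in the knockout 15 were lower and 0 higher, with a median of -0.50, while in the knockdown 12 were lower and 4 higher, with a median of -0.55. Lower calls thus made up 62.5% in the knockout and 50% in the knockdown, against 12.1% and 25.3% of all tested genes, and higher calls in the knockdown 16.7% against 22.2%. FN1, fibronectin, the ligand of the ITGA5, ITGA4, ITGA8 and ITGAV receptors, stood at 115.6 and 112 CPM in the controls, 69.7 and 69.0 in the knockout and 33.7 and 37.1 in the knockdown (-1.68 ± 0.09 in the knockdown, adjusted p = 2.4e-11). NPNT, nephronectin, the kidney ligand of the ITGA8 receptor, stood at 8.38 and 6.94 CPM in the controls, 0.555 and 1.325 in the knockout and 7.25 and 6.85 in the knockdown, and fell by 3.03 ± 0.34 in the knockout (adjusted p = 2.5e-06). TNC, tenascin-C, a ligand of the ITGA9 receptor, was at 9.43 and 7.43 CPM in the controls, 8.60 and 10.5 in the knockout and 1.26 and 0.790 in the knockdown, 3.22 ± 0.30 lower on the log2 scale in the knockdown than in the knockout (adjusted p = 3.6e-08). LAMC1, a laminin chain, rose by 0.62 ± 0.08 in the knockdown (adjusted p = 1.6e-06).

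Other focal adhesion and signalling genes moved in both directions. Of 50 such genes, 47 were tested, with 5 higher and 9 lower in the knockout (median 0.02) and 15 higher and 12 lower in the knockdown (median -0.21). That is 29.8% called in the knockout and 57.4% in the knockdown, where 22.4% and 47.4% of all tested genes were called. FLNA, the actin crosslinker filamin A, which also binds beta subunit tails, stood at 561 and 593 CPM in the controls, 641 and 668 in the knockout and 249 and 276.5 in the knockdown, a fall of 1.14 ± 0.08 in the knockdown (adjusted p = 8.2e-10). ARHGEF6, an exchange factor for Rac and Cdc42 that binds beta-parvin, fell in both, from 35.5 and 36.5 CPM to 19.8 and 18.0 in the knockout (-0.93 ± 0.13, adjusted p = 4.4e-05) and 10.2 and 9.57 in the knockdown (-1.87 ± 0.14, adjusted p = 1.2e-09). CSK, the kinase that restrains Src, rose in the knockdown from 25.2 and 30.4 CPM to 49.4 and 61.6 (1.0 ± 0.13, adjusted p = 2e-06). Of 24 genes of integrin activation, inhibition and traffic, 22 were tested, with 2 higher and 3 lower in the knockout and 4 higher and 6 lower in the knockdown. These shares, 22.7% and 45.5%, lie near the 22.4% and 47.4% of all tested genes. CD9, a tetraspanin that associates with beta 1 integrins, fell by 1.01 ± 0.12 in the knockdown, from 33.9 and 34.2 CPM to 16.8 and 16.99 (adjusted p = 1.1e-06). The 5 leukocyte integrin genes outside the list were not tested, at a summed 0.277 to 1.27 CPM with ITGAX at 0 counts in every library.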

How the data were processed

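Total RNA of 293T cells was sequenced in 6 libraries, 2 per group, grouped by their titles. The authors deposited a table of raw counts per gene for each library. The submitters' processing notes name Trim Galore 0.6.10, STAR 2.7.5a, featureCounts 1.5.0-p1 and hg38. Per the file headers, featureCounts 2.0.1 counted against GENCODE 34 with mapping quality of at least 10, in paired mode with strand setting 2. Which of the versions applies is not known. From these counts, edgeR 4.0.16 in R 4.3.3 kept genes by filterByExpr, applied TMM scaling and fitted all libraries at once with its quasi-likelihood functions (3 residual degrees of freedom). Benjamini-Hochberg adjustment ran over 17575 genes with a threshold of 0.05. SE is the log2 change divided by the square root of the F value. The calls were tested on simulated data, drawn with the fitted spread, with changes placed in the knockout only and no trend with exon length. That checks the procedure and not the calls in these libraries. Gene symbols were matched by identifier for 60370 genes. Levels of different genes were compared per kilobase of exon. The length correction takes from each library a spline (5 degrees of freedom) of log2 exon length. Replicates are biological per the series' design text, but what they share is not stated, so the p-values reflect only how these libraries vary, which may be technical. The named genes are all 34 members, the targeted genes and up to 3 called genes per pathway list, direction and comparison, of which the text prints part. Members and lists were chosen with earlier results of these data known, so their counts are descriptions. The closing section gives the alternatives.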

Additional observations from a re-analysis of the deposited data

How the results depend on the processing

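Alternatives were relative log expression scaling, DESeq2 1.42.0, no count filter, at least 1 CPM in 2 libraries, fits of the compared groups alone, a replicate block, the length correction, both together, and leaving out each library, where a lone library is assumed to vary like the other groups. Of 42 counts of genes called under them, 39 stayed within 1.5 times the reported one. Leaving out single libraries gave 8 to 15 (knockout), 14 to 18 (knockdown) and 8 to 14 genes (knockdown against knockout). Of 1253 log2 changes under an alternative, 1120 kept direction and side of the threshold, 82 lost their call, 28 gained one and 23 changed sign, all in genes not called.

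The sign changes with single libraries left out were, in the knockout, ITGB1 (-0.16 to 0.01), ILK (-0.03 to 0.06) and ZYX (-0.03 to 0.20); in the knockdown, ITGA6 (-0.01 to 0.29), ITGAE (-0.18 to 0.04), TLN2 (-0.13 to 0.03), PARVA (-0.13 to 0.10) and LIMS1 (-0.07 to 0.28); and for knockdown against knockout, ITGA10 (-0.68 to 0.03), TNS3 (-0.16 to 0.51) and ZYX (-0.04 to 0.73). PARVA in the knockdown was 0.02 with relative log expression scaling, DESeq2 and the compared groups alone and 0.01 with no count filter. With the length correction PTK2 was -0.02 in the knockdown, with and without the block, and for knockdown against knockout TLN2 was -0.06 with and without it and TNS3 was -0.01. The cause was not tested.

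With the replicate block 13, 19 and 17 genes were called (knockout, knockdown, knockdown against knockout), the added ones being ITGA1 in the knockdown (-0.38, adjusted p = 0.0421) and ITGAV in knockdown against knockout (0.20, adjusted p = 0.0397), and no other call changed. Same-numbered libraries deviated together with r = 0.063, 0.044 and 0.197 over 11509 genes, so the numbers were not taken to pair the samples. Counts of at most 20 in every library (ITGA10, ITGA11, ITGB3, ITGB4, ITGB6 and ITGB7), and of 2 to 43 for TNS1, limit what can be said of those genes.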
